A study of Saccharomyces cerevisiae W303 with 8 samples.

Results

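The nuclear genes of the respiratory chain and the ATP synthase were followed through salt stress in 2 strains of budding yeast, *Saccharomyces cerevisiae* W303. The set was a named list of 37 genes, matched to array probes by the systematic ORF name: 4 subunits of complex II, 9 of complex III, 2 cytochromes c, 9 subunits of complex IV, 11 subunits of the ATP synthase, the NADH dehydrogenase NDI1 and the regulator HAP4. Each had 1 probe, and all 37 passed the filter on dim probes, out of 6076 genes on 6103 probes that passed. The rule rests on gene function, though earlier results of these data were known when the list was chosen.

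RNA was measured on 8 two-colour Agilent arrays. Per the labels, the strain called control here carried the msn2 and msn4 mutations and the plasmid pMsn2pMsn2DNES, and the strain called cdc55 carried the same mutations and plasmid together with a cdc55 mutation. CDC55 codes for a B-type regulatory subunit of PP2A, a protein phosphatase, and MSN2 and MSN4 encode related stress transcription factors, so both strains share whatever the msn2 and msn4 mutations and the plasmid do. Cultures grown in rich glucose medium for 4 generations were taken untreated (0 min) or 10, 20 and 30 min after NaCl was added to 0.4 M, with 1 array for each strain and time and no replicate. Each Cy5-labelled sample was hybridised against Cy3-labelled RNA of the untreated control strain, with no dye swap, so a log2 ratio of 0 is the level of untreated control cells and a dye effect of a probe stays in its ratios but cancels in differences between arrays.

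In respiration, electrons from NADH and succinate pass through ubiquinone, complex III, cytochrome c and complex IV to oxygen, and the proton gradient built on the way drives the ATP synthase. Budding yeast has no proton-pumping complex I; NDI1 takes its place, and complex II feeds in electrons from succinate. On glucose the genes of these complexes are partly repressed, and HAP4, the activating subunit of the HAP complex, is the main regulated activator of many of them.

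Before the results, 4 of the 8 arrays needed a correction of identity. In the authors' table, the values filed under control at 10 min stood in the column of cdc55 at 0 min and the reverse; the same held for control at 30 min and cdc55 at 20 min. Each array was assigned to the sample heading its column, under which 98.3% of 5742 complete rows matched, against 2 rows as attached. Rows were matched by their values to the nearest probe, and 0 of these matches carried the same name. Every strain difference at a single time therefore uses 1 reassigned array. With the files as attached no member passed in any comparison, where 0% of all probes were called.

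Across the 8 arrays 93.1 to 98.6% of spots were well above background, and no spot was saturated. All 37 members were well above background in both channels on every array, with a median log2 intensity of 14.1 against 12.6 over all probes. The 2 spots of a member's probe differed by a median of 0.0448 on the log2 scale over 294 pairs, and by 0.503 at most. On the control array at 0 min, where both channels held untreated control strain, the members lay between -0.35 (ATP1) and 0.49 (QCR6) with an SD of 0.17. The CDC55 probe was lower in the cdc55 strain at all 4 times, at 0.15, 0.17, 0.14 and 0.45 in control against -0.51, -0.21, -0.44 and -0.54, yet stayed well above background. MSN4, labelled as mutated in both strains, also gave signal on every array, and the sources used here do not say what the mutation of either gene was. The MSN2 probe was dim, at log2 Cy5 signals of 6.84 to 7.40, and cleared the Cy5 background on 6 of 8 arrays, although both strains are labelled as carrying the plasmid.

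**Figure D1:**
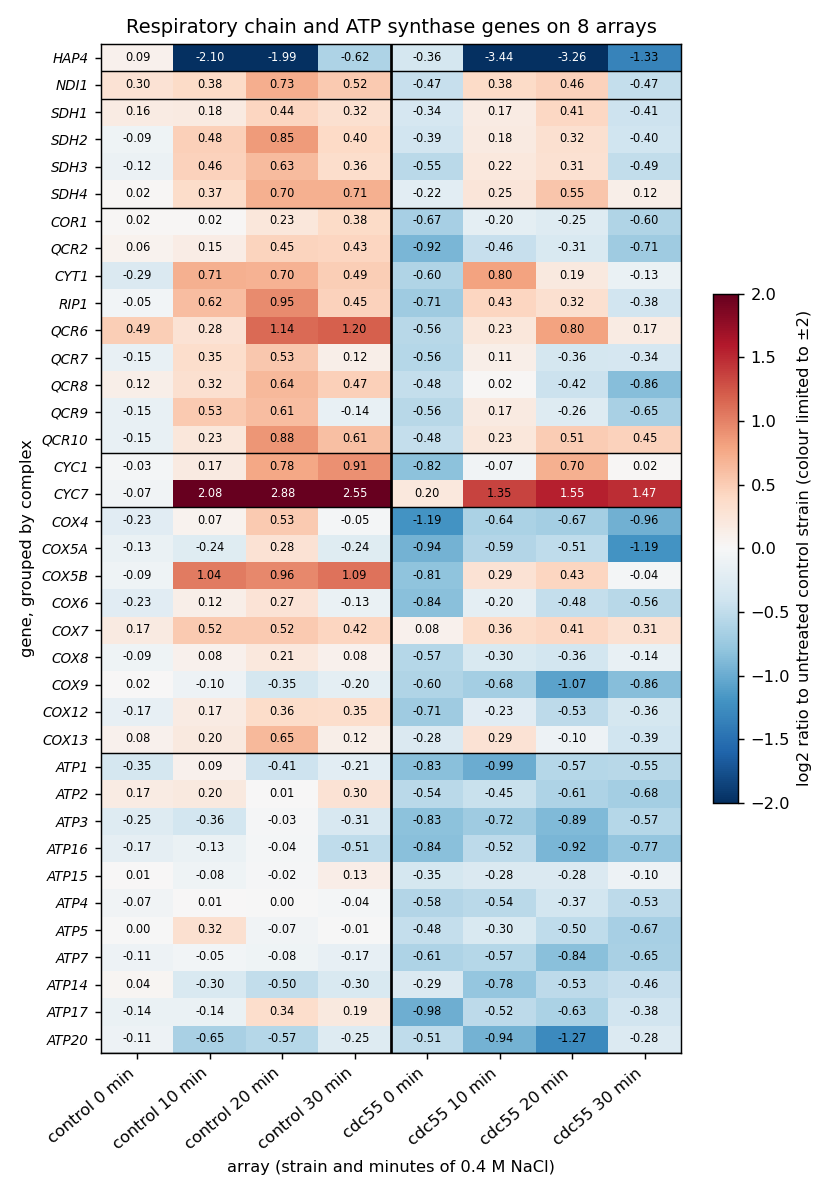
Log2 ratio to untreated control cells of each of the 37 genes (rows, grouped by complex) on each of the 8 arrays (columns, strain and minutes of NaCl); each cell prints its value, and colour is limited to 2 in either direction. HAP4 is the darkest blue row with NaCl, CYC7 the darkest red, and most cells of the cdc55 strain at 0 min are below 0.

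The first comparison was between strains. By the sign of the difference and by the medians of all 4 complexes, RNA levels were lower in the cdc55 strain both before and during salt stress, although few single genes passed the test. Before NaCl 36 of 37 members were lower there, and their median difference was -0.50 against 0.00 over all probes, of which 49.4% were lower. With NaCl (mean of 10, 20 and 30 min) 37 of 37 were lower, with a median of -0.53 against 0.01 over all probes, of which 48.5% were lower. The medians correspond to RNA levels 1.42-fold and 1.44-fold lower. RNA came from whole cultures, so fewer expressing cells and less RNA per cell cannot be told apart, and equal amounts of RNA were compared. Loess normalisation centres each array near 0, so the all-probe medians near 0 were set by it. They do not show that other RNAs were unchanged, and the members' values are relative to them.

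**Figure D2:**
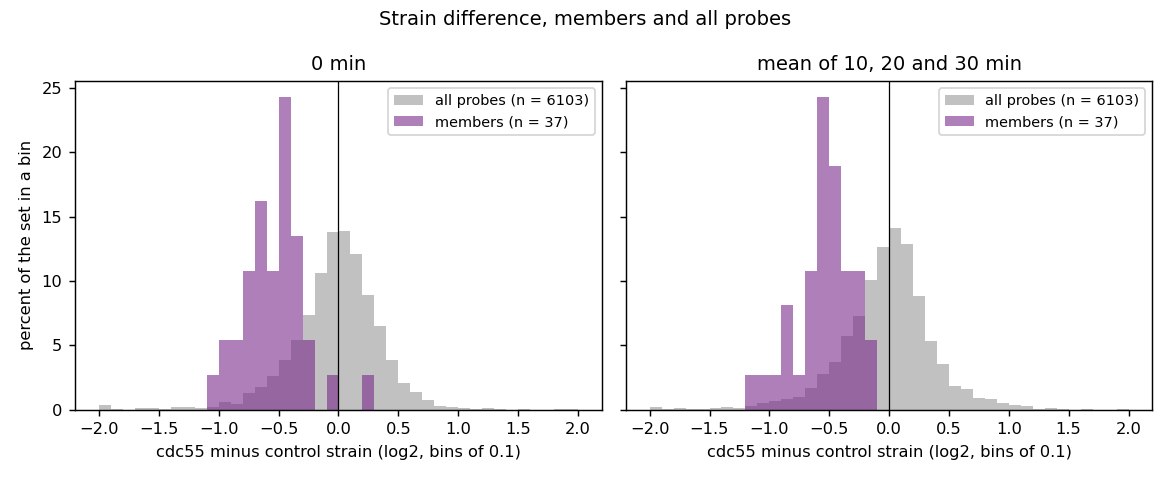
Strain differences (cdc55 minus control, log2, bins of 0.1) of the 37 members and of all 6103 probes, as percent of each set in a bin, at 0 min (left) and as the mean of 10, 20 and 30 min (right); values beyond 2 are in the end bins. The members lie left of 0, except CYC7 at 0 min, with medians of -0.50 and -0.53. All probes centre on 0.00 and 0.01, where normalisation places them.

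The shift was spread over the list rather than carried by a few genes. Below the lower quartile of all probes (-0.20 before NaCl and -0.21 with it) lay 35 of 37 members in each case. CYC7 and COX7 were the exceptions before NaCl, and COX7 and QCR10 with it. Below the 5th percentile of all probes (-0.64 and -0.66) lay 12 members before and 9 with NaCl. In the sign alone, 32 of 37 members were lower in the cdc55 strain at all 4 times, against a background of 22.4% of all probes; these were 4 of 4 in complex II, 7 of 9 in complex III, 8 of 9 in complex IV, 11 of 11 in the ATP synthase, 1 of 2 cytochromes c, and HAP4. The 5 others were CYC7, which was higher in the cdc55 strain at 0 min, and CYT1, QCR10, COX13 and NDI1, which were at or above the control strain at 10 min. A stricter count asked for no overlap, with all 4 cdc55 values below all 4 control values. It held for 17 of 37 members, against 5.72% of all probes: 9 of 11 in the ATP synthase, 5 of 9 in complex IV (COX4, COX5A, COX8, COX9 and COX12), 3 of 9 in complex III (COR1, QCR2 and QCR8) and 0 of 4 in complex II. The members were brighter than most probes, and the part of intensity in the shift was not tested; with arrays only centred on their median, the members' median was -0.48 before and -0.45 with NaCl.

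Gene by gene, few differences passed the test. Before NaCl 0 members passed limma at an adjusted p of 0.05, where 0% of all probes were called higher and 0.0492% (3 probes) lower; 10 members had an unadjusted p under 0.05, and their lowest adjusted p was 0.433 (COX4). With NaCl 3 members were lower (HAP4, CYC7 and COX4) and 0 were higher, where 1.85% of all probes were called lower and 0.36% higher; 25 of 37 members had an unadjusted p under 0.05. The spread in this model is the variation of the strain gap among the 3 times with NaCl, with no biological replicate, and the 0 min arrays were assumed to vary alike. Leaving out the 20 min arrays ended all 3 calls, with differences of -0.81 (COX4), -0.90 (CYC7) and -1.03 (HAP4). That fit called 0% of all probes. The 3 calls also ended without the 30 min arrays, with -0.95 (COX4, limma adjusted p = 0.136), -1.03 (CYC7, 0.137) and -1.31 (HAP4, 0.057). There the fit called 0.475% of all probes. When the 10 min arrays were left out 20 members passed, in a fit that called 16.4% of all probes.

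**Figure D3:**
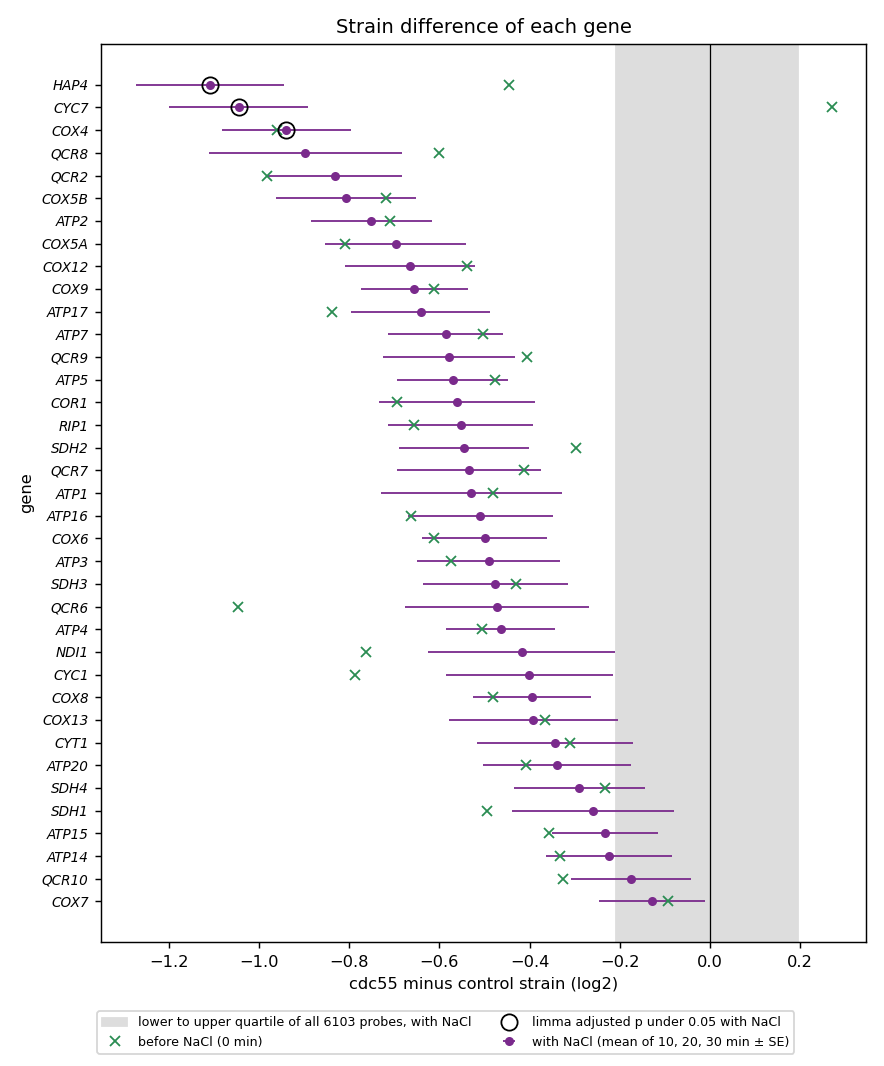
Strain difference (cdc55 minus control, log2) of each gene with NaCl (points, mean of 10, 20 and 30 min, with bars of 1 SE from limma) and at 0 min (crosses, 1 array per strain), sorted by the former; the grey band spans the lower to the upper quartile of all 6103 probes. Circles mark HAP4, CYC7 and COX4, which passed an adjusted p of 0.05, and the point of every gene is left of 0.

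Complex IV, cytochrome c oxidase, passes electrons to oxygen. Its 9 nuclear subunits had median strain differences of -0.61 before and -0.66 with NaCl. COX4, subunit IV of the enzyme, had control-strain values of -0.23, 0.07, 0.53 and -0.05 at 0, 10, 20 and 30 min, against -1.19, -0.64, -0.67 and -0.96 for cdc55 cells. All 4 cdc55 values were below all 4 control values. Its difference was -0.96 ± 0.25 (SE) before NaCl and -0.94 ± 0.14 with it, about 1.92-fold lower with salt (limma adjusted p = 0.0381).

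COX9, the small subunit VIIa, was likewise separated, at 0.02, -0.10, -0.35 and -0.20 against -0.60, -0.68, -1.07 and -0.86; its difference with NaCl was -0.66 ± 0.12 (limma adjusted p = 0.0563). COX7, subunit VII, stood apart at the other end, at 0.17, 0.52, 0.52 and 0.42 in control and 0.08, 0.36, 0.41 and 0.31 in the cdc55 strain. The strains differed by -0.09 ± 0.20 before and -0.13 ± 0.12 with NaCl, the smallest difference in the complex in both cases. COX6 (subunit VI), COX8 (VIII), COX12 (VIb) and COX13 (VIa) had differences with NaCl between -0.67 (COX12) and -0.39 (COX13), none past the threshold.

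Complex III, the cytochrome bc1 complex, hands electrons from ubiquinone to cytochrome c. Its 9 members had median strain differences of -0.60 before and -0.55 with NaCl. QCR2, a core subunit, was at 0.06, 0.15, 0.45 and 0.43 in control and -0.92, -0.46, -0.31 and -0.71 in the cdc55 strain, and differed by -0.83 ± 0.15 with NaCl (limma adjusted p = 0.0547). The other core subunit, COR1, was at 0.02 to 0.38 in control and -0.67 to -0.20 in the cdc55 strain.

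QCR8, a small membrane subunit, had the lowest value of the complex with NaCl, -0.90 ± 0.21 (limma adjusted p = 0.0881). It was at 0.12, 0.32, 0.64 and 0.47 in control and -0.48, 0.02, -0.42 and -0.86 in the cdc55 strain, so the gap was narrowest at 10 min. QCR6, the acidic hinge protein, had the lowest value before NaCl, -1.05 ± 0.35, but its control value at 0 min (0.49) was itself the farthest from 0 among the members on that array. QCR10 was the least shifted with NaCl, at -0.17 ± 0.13. CYT1, the cytochrome c1 haem protein, differed least before NaCl, at -0.31 ± 0.30. RIP1, the Rieske iron-sulphur protein, QCR7 and QCR9 had differences with NaCl of -0.55, -0.53 and -0.58, none past the threshold.

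The ATP synthase makes ATP in its catalytic F1 head, which a peripheral stalk holds to the membrane part Fo. Its 11 members were lower in the cdc55 strain at every time, with medians of -0.50 before and -0.51 with NaCl. ATP2, the catalytic beta subunit, was at 0.17, 0.20, 0.01 and 0.30 in control and -0.54, -0.45, -0.61 and -0.68 in the cdc55 strain. The difference with NaCl, -0.75 ± 0.13, was the largest of the complex (limma adjusted p = 0.0547).

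The rest of the F1 head was lower too: with NaCl, ATP1 (alpha) differed by -0.53, ATP3 (gamma) by -0.49, ATP16 (delta) by -0.51 and ATP15 (epsilon) by -0.23. In the stalk, ATP4 (subunit b) differed by -0.46, ATP5 (the oligomycin sensitivity subunit) by -0.57, ATP7 (subunit d) by -0.59 and ATP14 (subunit h) by -0.22. The smallest shift of the complex was that of ATP14 both before (-0.33 ± 0.24) and with NaCl. ATP7 stayed nearly flat and apart by strain, at -0.11, -0.05, -0.08 and -0.17 in control and -0.61, -0.57, -0.84 and -0.65 in cdc55. The gap was not even in every subunit: that of ATP1 was -0.48, -1.08, -0.16 and -0.35 at 0, 10, 20 and 30 min. ATP14 and ATP20 were the subunits whose strain ranges overlapped. Their control values at 10 and 20 min were below their highest cdc55 value, -0.29 at 0 min for ATP14 and -0.28 at 30 min for ATP20. Of the Fo members, ATP17 (subunit f) had the lowest value before NaCl, at -0.84 ± 0.27, and ATP20 (subunit g), which is needed for ATP synthase dimers, differed by -0.41 before and -0.34 with NaCl. None of the 11 passed the threshold in any of the 6 comparisons.

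Complex II, succinate dehydrogenase, had the smallest shift of the complexes, with medians of -0.36 before and -0.38 with NaCl. Every one of its 4 subunits was lower in the cdc55 strain at each time, but the ranges of the strains overlapped because the levels moved with time. SDH1, the flavoprotein, differed most before NaCl (-0.50 ± 0.31) and least with it (-0.26 ± 0.18). SDH2, the iron-sulphur subunit, was at -0.09, 0.48, 0.85 and 0.40 in control and -0.39, 0.18, 0.32 and -0.40 in cdc55. It differed most with NaCl, at -0.55 ± 0.14 (limma adjusted p = 0.101), and SDH4, a membrane anchor, differed least before NaCl, at -0.23 ± 0.25. NDI1, which passes electrons from mitochondrial NADH to ubiquinone, was at 0.30, 0.38, 0.73 and 0.52 in control and -0.47, 0.38, 0.46 and -0.47 in cdc55. The strains were thus level at 10 min, and they differed by -0.76 ± 0.36 before and -0.42 ± 0.21 with NaCl. None of these 5 passed.

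A narrower comparison used only the 4 arrays whose file and column matched: control at 0 and 20 min, and cdc55 at 10 and 30 min. Strain and time are mixed in it, so it was read by sign alone. Both cdc55 arrays were below both control arrays in 18 of 37 members, against 14.1% of all probes. These were 9 of 11 ATP synthase subunits, 5 of 9 in complex IV, 4 of 9 in complex III and 0 of 4 in complex II. A member with all 4 cdc55 values below all 4 control values passes it by definition. The 17 members without overlap, counted above, are therefore among these 18, and the count is not separate support. This comparison was added after the exchange had been found.

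The second comparison was the response to NaCl within each strain. By their medians, complexes II, III and IV lay above their own untreated level and the ATP synthase lay near it, while CYC7 rose and HAP4 fell in both strains and COX5B rose in the control strain. In the control strain 2 members rose (CYC7 and COX5B) and 1 fell (HAP4), where 7.78% of all probes were called higher and 6.01% lower. In the cdc55 strain 1 rose (CYC7) and 1 fell (HAP4), where 2.88% were called higher and 1.31% lower. With median centring of the arrays 3 rose and 1 fell there, in a fit that called 8.95% of all probes. Leaving out the 20 min arrays left 1 call in control and 0 in cdc55, in fits that called 0.541% and 0.213% of all probes. Leaving out the 10 min arrays gave 9 and 6, in fits that called 28.6% and 15.6% of all probes. Leaving out the 30 min arrays gave 3 and 9, in fits that called 17.9% and 15.2%. The members called, 3 and 2 of 37, were a share near or below that among all probes. Of the 8 files, 3 lacked a settings block: those of the 0 min samples and of control at 10 min. In the cdc55 strain file type and NaCl therefore cannot be told apart, and in the control strain they are partly mixed.

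**Figure D4:**
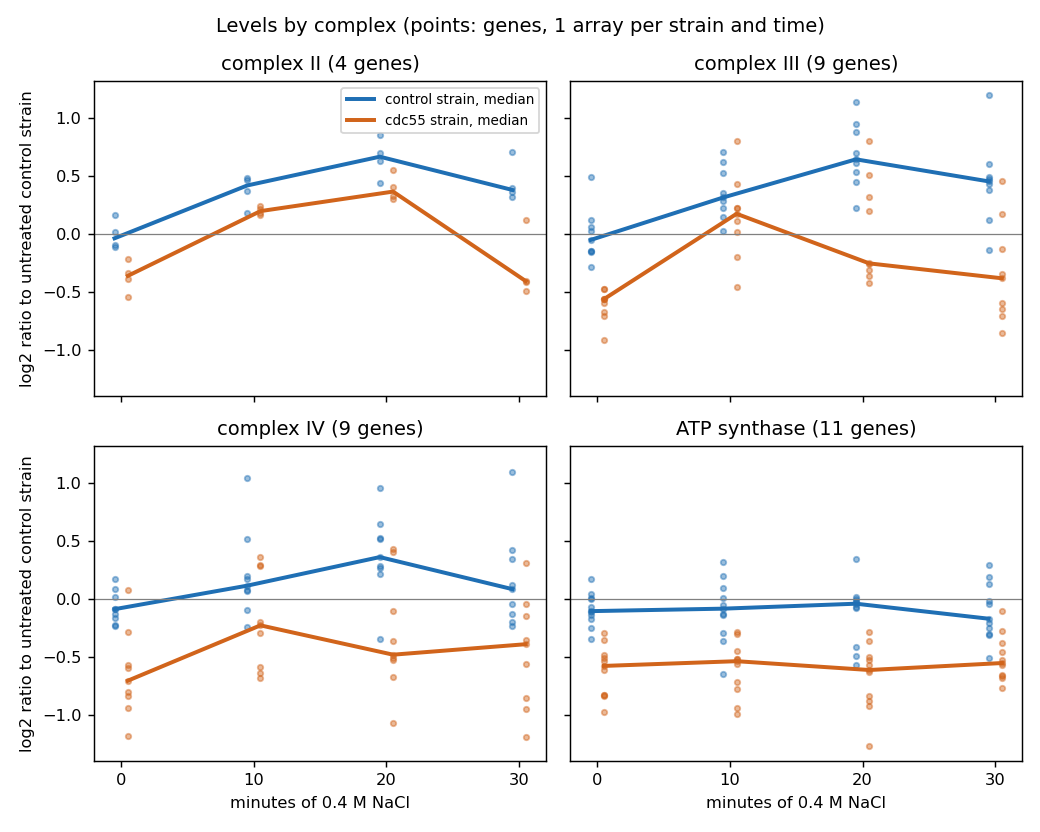
Log2 ratio to untreated control cells of the members of complexes II, III and IV and the ATP synthase (points, 1 array per strain and time) and their median (lines) against minutes of 0.4 M NaCl. In the control strain the medians of complexes II, III and IV were highest at 20 min, whereas the ATP synthase medians were nearly flat and apart by strain at every time.

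By complex, the median response (mean of 10, 20 and 30 min minus 0 min) in the control strain was 0.59 in complex II, 0.49 in complex III, 0.32 in complex IV and 0.01 in the ATP synthase, against 0.00 over all probes. In the cdc55 strain it was 0.47, 0.43, 0.30 and 0.10, against 0.01. Normalisation sets these all-probe medians near 0. By sign, 23 members were above their own 0 min value at all 3 times in the control strain, against 34.5% of all probes, and 20 in the cdc55 strain, against 31.1%. In the control strain these included 4 of 4 in complex II, 8 of 9 in complex III and 7 of 9 in complex IV but 1 of 11 in the ATP synthase. In the cdc55 strain they were 2 of 4, 7 of 9, 6 of 9 and 3 of 11. All comparisons with 0 min in a strain share that strain's single 0 min array.

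The highest value in complex III was that of CYT1 in the control strain, at -0.29, 0.71, 0.70 and 0.49, a mean change of 0.92 ± 0.24 (limma adjusted p = 0.0577). Its cdc55 values were -0.60, 0.80, 0.19 and -0.13. The value at 10 min was thus above the control strain's and those at 20 and 30 min were below. QCR6 was highest there in the cdc55 strain (0.96 ± 0.29, limma adjusted p = 0.116), while COR1 was lowest in the control strain (0.19) and QCR8 in the cdc55 strain (0.06). In complex II, SDH2 was highest in the control strain at 0.67 ± 0.20 (limma adjusted p = 0.0764) and SDH3, a membrane anchor, in the cdc55 strain at 0.56 ± 0.23. SDH1 was lowest in both, at 0.15 and 0.39.

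In complex IV, COX9 was the one subunit with a mean response below 0 in both strains, at -0.23 in control and -0.28 in cdc55. Among the ATP synthase subunits responses ran from -0.40 (ATP14) to 0.27 (ATP17) in the control strain and from -0.32 (ATP20) to 0.46 (ATP17) in the cdc55 strain. ATP20 was at -0.11, -0.65, -0.57 and -0.25 in control and -0.51, -0.94, -1.27 and -0.28 in the cdc55 strain, lowest at 10 or 20 min in both. NDI1 had responses of 0.25 ± 0.29 and 0.59 ± 0.29, neither past the threshold.

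HAP4 fell in both strains; none of the subunit genes passed the test in that direction. Its control-strain values were 0.09, -2.10, -1.99 and -0.62, and its cdc55 values -0.36, -3.44, -3.26 and -1.33. In both strains the values at 10 and 20 min were far below 0 min, those at 30 min were part of the way back, and the cdc55 value was the lower at each time. HAP4 fell with NaCl by 1.66 ± 0.23 on the log2 scale in the control strain, 3.16-fold (limma adjusted p = 0.0163), and by 2.32 ± 0.23 in the cdc55 strain (limma adjusted p = 0.00987).

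Between strains HAP4 differed by -0.45 ± 0.28 before NaCl, which did not pass, and by -1.11 ± 0.16 with it, 2.16-fold lower in the cdc55 strain (limma adjusted p = 0.0366). The difference in response, -0.66 ± 0.33, did not pass (limma adjusted p = 0.9998). From 10 to 30 min, over both strains, HAP4 rose by 1.80 ± 0.20 (limma adjusted p = 0.0143), the one member called in that comparison, where 3.36% of all probes were called higher and 4.41% lower. On the 4 arrays whose file and column matched it was at 0.09 and -1.99 in control (0 and 20 min) and -3.44 and -1.33 in cdc55 (10 and 30 min). Without the 20 min arrays every one of these HAP4 calls was lost, with changes of -1.45 (control), -2.03 (cdc55), -1.03 (between strains) and 1.80 (from 10 to 30 min). In the same order, 0.541%, 0.213%, 0% and 0.115% of all probes were called without these arrays.

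**Figure D5:**
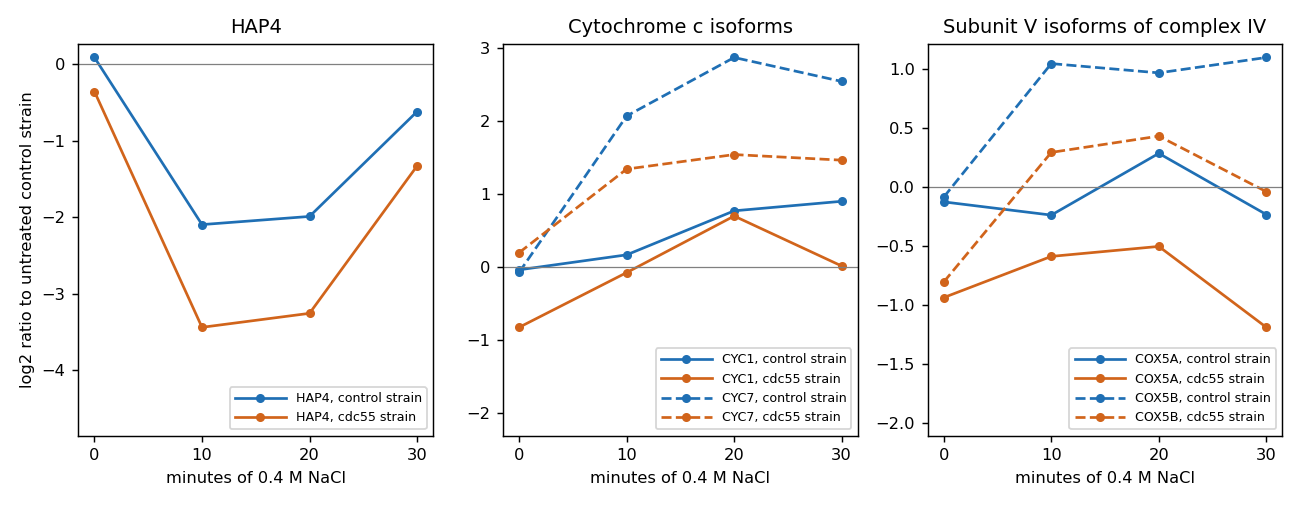
Log2 ratio to untreated control cells against minutes of 0.4 M NaCl for HAP4, the cytochrome c isoforms CYC1 and CYC7, and the subunit V isoforms COX5A and COX5B, with 1 array per point. HAP4 is at -2.10 and -3.44 at 10 min, and CYC7 and COX5B (dashed) lie above CYC1 and COX5A (solid) in both strains at 10, 20 and 30 min.

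The list holds 2 pairs of isoforms of which one is known as the aerobic and the other as the hypoxic form. CYC7, the hypoxic cytochrome c, had control-strain values of -0.07, 2.08, 2.88 and 2.55 and cdc55 values of 0.20, 1.35, 1.55 and 1.47. It was the highest member on all 6 arrays with NaCl. It rose by 2.57 ± 0.22 in control, 5.93-fold (limma adjusted p = 0.00456), and by 1.25 ± 0.22 in cdc55, 2.38-fold (limma adjusted p = 0.0420).

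With NaCl CYC7 differed between strains by -1.05 ± 0.15, 2.06-fold lower in the cdc55 strain (limma adjusted p = 0.0366), and before NaCl the strains differed by 0.27 ± 0.27, the one positive value among the members. Its difference in response, -1.32 ± 0.31, was the only one among the 37 with an unadjusted p under 0.05, and did not pass after adjustment (limma adjusted p = 0.9998). Without the 20 min arrays the control response of CYC7 still passed (limma adjusted p = 0.046), where 0.541% of all probes were called. The other CYC7 calls did not pass there (1.21 in the cdc55 response and -0.90 between strains), where 0.213% and 0% were called. With 1 strain term held constant over all times the strain call was also lost (limma adjusted p = 0.098), where 13.7% were called.

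CYC1, the main aerobic cytochrome c, was at -0.03, 0.17, 0.78 and 0.91 in control and -0.82, -0.07, 0.70 and 0.02 in the cdc55 strain. Its mean changes with NaCl, 0.65 ± 0.26 and 1.04 ± 0.26, did not pass. CYC7 relative to CYC1, as the difference of their log2 ratios, was at -0.03, 1.90, 2.10 and 1.64 in control and 1.02, 1.42, 0.84 and 1.45 in cdc55. In the cdc55 strain the pair was therefore already apart at 0 min. These differences compare changes from the reference, not the levels of the 2 transcripts.

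COX5B, the hypoxic form of subunit V, was at -0.09, 1.04, 0.96 and 1.09 in control and at -0.81, 0.29, 0.43 and -0.04 in the cdc55 strain. It rose by 1.12 ± 0.22 in the control strain, 2.18-fold (limma adjusted p = 0.0308). Its change in the cdc55 strain, 1.03 ± 0.22, did not pass (limma adjusted p = 0.0642), and the difference in response was -0.09 with an SE of 0.31. The control call was lost without the 20 min arrays, where the change was 1.16 and 0.541% of all probes were called.

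COX5A, the aerobic form, was at -0.13, -0.24, 0.28 and -0.24 in control and -0.94, -0.59, -0.51 and -1.19 in the cdc55 strain. The difference between strains with NaCl was -0.70 ± 0.16 (limma adjusted p = 0.0787). COX5B relative to COX5A was at 0.04, 1.28, 0.68 and 1.33 in control and 0.13, 0.88, 0.93 and 1.15 in cdc55, above the 0 min value at all 3 times in both strains.

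The strains were then compared in their response itself. Of the 37 members 0 passed limma at an adjusted p of 0.05, as did 0% of all probes; CYC7 was the 1 member, and 81 the number of all probes, with an unadjusted p under 0.05. The members' median difference in response was 0.02, with 19 positive and 18 negative. The extremes were 0.24 (SDH1) and -0.25 (SDH2) in complex II, 0.57 (QCR6) and -0.30 (QCR8) in complex III, 0.11 (COX5A) and -0.13 (COX12) in complex IV, and 0.20 (ATP17) and -0.09 (ATP5) in the ATP synthase. Their SEs lay between 0.25 and 0.43, so none of these 8 was more than 2 SEs from 0.

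By single times the strain gap was not even. The members' median difference was -0.50, -0.35, -0.63 and -0.65 at 0, 10, 20 and 30 min, with 37 of 37 negative at 20 and 30 min and 33 of 37 at 10 min. The ATP synthase was at -0.50, -0.48, -0.63 and -0.35, so its gap was narrowest at 30 min. Complex II was at -0.36, -0.19, -0.24 and -0.77, and complex III at -0.60, -0.22, -0.63 and -0.84, both narrowest at 10 min and widest at 30 min. Complex IV was at -0.61, -0.38, -0.75 and -0.65. At 10 min the control array came in a file without a settings block and the cdc55 array in one with it; at the other times both arrays were of one kind. Each of these medians rests on 1 array per strain.

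From 20 to 30 min the median change in complex II was -0.76 in the cdc55 strain and -0.20 in the control strain. In the cdc55 strain SDH1, SDH2 and SDH3 were between 0.31 and 0.41 at 20 min and between -0.49 and -0.40 at 30 min, and SDH4 was at 0.55 and 0.12. The corresponding medians of cdc55 and control were -0.39 and -0.21 in complex III, -0.10 and -0.13 in complex IV, and 0.16 and 0.05 in the ATP synthase. With 1 array at each point these differences between strains were not tested. Over both strains the change from 10 to 30 min ran from -0.75 (QCR9, limma adjusted p = 0.0589) to 0.43 (QCR6) in complex III, from -0.41 (SDH3) to 0.11 (SDH4) in complex II, from -0.38 (COX13) to 0.08 (COX8) in complex IV and from -0.35 (ATP5) to 0.53 (ATP20) in the ATP synthase, none past the threshold.

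A further 82 nuclear genes of the same pathways, in 9 lists of regulators, assembly factors, electron donors, ubiquinone synthesis and carriers, were set beside the members. Their median strain difference was -0.26 before NaCl (66 of 82 negative) and -0.22 with it (64 of 82), between that of the members and that of all probes. With NaCl 3 of 82 were lower in the cdc55 strain and 0 higher, against 1.85% and 0.36% of all probes. INH1, which inhibits ATP hydrolysis by the ATP synthase, was at 0.14, 0.38, 0.53 and 0.74 in control and -1.37, -1.11, -0.89 and -1.58 in the cdc55 strain, a gap wider than that of any subunit (-1.74 ± 0.20, limma adjusted p = 0.0224). PET9, the main ADP/ATP carrier of the inner membrane, differed by -0.91 ± 0.14 (limma adjusted p = 0.0381), and COQ9, needed for ubiquinone synthesis, by -0.76 ± 0.12 (limma adjusted p = 0.0402).

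In the NaCl response 13 of the 82 rose and 1 fell in the control strain (7.78% and 6.01% of all probes), and 5 rose and 0 fell in the cdc55 strain (2.88% and 1.31% of all probes). Of the electron donors to the chain 4 of 5 were called in control. CYB2, the L-lactate dehydrogenase cytochrome b2, rose by 3.20 ± 0.33, GUT2, the mitochondrial glycerol 3-phosphate dehydrogenase, by 1.89 ± 0.26, DLD1, a D-lactate dehydrogenase, by 1.60 ± 0.26, and NDE2, an external NADH dehydrogenase, by 1.42 ± 0.24. CYB2 and DLD1 were also called in the cdc55 strain, at 2.55 and 1.74. Among the paralogs and assembly factors of complex II, SDH6 (1.84), SHH4 (1.22) and SDH8 (1.06) rose in control, and SDH6 (1.82) and SDH8 (1.06) in cdc55, whereas none of the 4 subunits passed.

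Of the other ATP synthase proteins, the regulators STF2 (1.65) and STF1 (1.24) rose in control and STF1 (1.42) in cdc55, while the 11 subunits did not pass. The other calls in control were PET54 (0.95) and ATP22 (0.72), which act in mitochondrial translation, COQ4 of ubiquinone synthesis (0.90), and MOT3, a repressor of hypoxic genes (0.99). AAC3, the hypoxic ADP/ATP carrier, fell by 2.15 ± 0.52 (limma adjusted p = 0.0478), opposite in direction to CYC7 and COX5B. HAP2, HAP3 and HAP5, the DNA-binding partners of HAP4, and HAP1 passed in 0 of the 6 comparisons.

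From 10 to 30 min, over both strains, 3 of the 82 rose and 6 fell, against 3.36% and 4.41% of all probes, so the first count is near the background. NDE1 (1.04), STF1 (0.92) and SDH8 (0.72) rose. NDE1, the other external NADH dehydrogenase, was at -0.14, -0.62, -0.84 and 0.11 in control and -0.60, -1.39, -1.03 and -0.03 in the cdc55 strain, with a low at 10 or 20 min and, at 30 min, values above its own 0 min in both strains. MOT3 (-1.73) and SHH4 (-1.27) fell, as did 4 assembly factors of complex IV: COX15 (-1.08), which acts in haem A synthesis, SCO1 (-1.03) and COX23 (-0.97), which act in copper delivery, and COX18 (-0.79), which inserts a subunit into the membrane. No complex IV subunit among the members passed in that comparison.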

How the data were processed

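Per the file headers, each scanner file lists for every spot its intensity and local background in Cy3 and Cy5, quality flags of 0 or 1, and a log10 ratio (Cy5/Cy3); Feature Extraction 10.5.1.1 is named in 5 of 8 files. The authors' deposited value table holds log2 ratios with scale and direction unstated; 5646 of its 5742 complete rows equalled a probe's mean log2 ratio of Cy5 over Cy3 within 0.01 on all arrays after the exchange of 2 pairs of files.

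Median intensities were corrected with normexp (offset 50) and loess-normalised in limma 3.58.1 (R 4.3.3); control and non-uniform spots had weight 0, non-uniform spots were dropped and the 2 spots of a probe averaged. Of 6256 probes 12 had no usable spot and 141 did not clear the Cy5 background on 3 or more arrays. The model held 4 time terms and separate strain terms without and with NaCl (6 coefficients, 2 residual and 3.94 prior degrees of freedom), with Benjamini-Hochberg adjustment over 6103 probes at 0.05. Named were every member past the threshold, the highest and lowest of each complex per comparison, HAP4, NDI1, the isoform pairs, up to 5 called genes of each further list, and members needed to account for the list. The members and lists were chosen with earlier results of these data known. Because no sequences or matching genome build were used here, none are printed.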

Additional observations from a re-analysis of the deposited data

How the results depend on the processing

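The alternatives changed the number of members called as follows. In the control response, 3 became 4 with median centring or Agilent's ratio, 16 with 1 strain term held constant over time, 9 without the 10 min arrays, 1 without the 20 min arrays, and 0 when files were left as attached. In the cdc55 response, 2 became 4 with median centring, 16 with the constant strain term, 6, 0 and 9 without the 10, 20 and 30 min arrays, and 0 as attached. In the strain difference with NaCl, 3 became 6 with median centring, 4 with an intensity trend, 22 with the constant term, 20, 0 and 0 without the 10, 20 and 30 min arrays, and 0 as attached. In the change from 10 to 30 min, 1 became 2 with the constant term, 0 without 20 min and 0 as attached. Over all probes, the counts of 842, 256, 135 and 474 in these comparisons became 33, 13, 0 and 7 without the 20 min arrays. With the constant term they became 2463, 2463, 834 and 1040, and as attached 0 in each. The constant term gives both strains the same response, so its 16 members and 2463 probes are a single result, listed for each strain. Its strain difference, with 22 members and 834 probes, covers all times including 0 min, not only those with NaCl. With median centring the cdc55 response, the strain difference with NaCl and the change from 10 to 30 min came to 546, 398 and 749. Without the 10 min arrays the first 3 comparisons came to 1746, 954 and 1003, and without the 30 min arrays the cdc55 response came to 926 and the strain difference with NaCl to 29; the latter was 208 with an intensity trend in the variance. For the strain difference before NaCl, 3 probes became 20 with median centring, 72 without 10 min, 0 without 20 min, 2 without 30 min, and 5 with Agilent's ratio or an intensity trend. For the difference in response, 0 became 2 without the 10 min arrays.

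With the files as attached 5 values reversed: CYC7 and HAP4 in the cdc55 response (-0.29 and 0.30) and in the strain difference with NaCl (0.25 and 0.0717), and HAP4 from 10 to 30 min (-0.40). The members' median strain difference was then 0.17 before and 0.05 with NaCl. All 9 calls of named members kept their direction and stayed past the threshold with no background correction, with median centring, with Agilent's own ratio, with no filter on dim probes, and with the variance allowed to follow intensity. On arrays whose file and column matched, added after seeing the data, the members' median was 0.43 for control at 20 minus 0 min and -0.23 for cdc55 at 30 minus 10 min. Slide as a block was not run, since the 8 file names give 1 slide, and the constant strain term gives no value for the strain difference before NaCl or the difference in response. No paired analysis was possible because each strain and time has 1 array and no replicate number; the time terms of the model already match the strains by time. Leaving out a time point removes 2 of the 8 arrays; beyond that, the cause of these moves was not tested.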
